A study of Mus musculus with 11 samples.

Results

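Anks1b transcripts were examined in ribosome-associated RNA from the hippocampus of mice. The values come from 3 rows named for this gene in the deposited table of 63244 UCSC transcripts, uc007gtd.1 (Anks1b-204), uc033frv.1 (Anks1b-202) and uc033fsa.1 (Anks1b-205). The rows were chosen by their SD against NSD values in these libraries, as the study lists Anks1b among genes with 1 transcript that differed after sleep deprivation. Their SD and NSD values are therefore a description. No p is given for them, and where the fit over all rows called one, that is only counted. Libraries came from CaMKIIα-Cre:RiboTag male mice aged 2 to 3 months, in which Cre under the CaMKIIα promoter leads excitatory neurons to make the ribosomal protein Rpl22 with an HA tag. Tagged ribosomes were purified from hippocampus and the attached RNA was sequenced (TRAP-Seq). The 6 SD libraries came from mice kept awake for 5 h by gentle handling from lights on, and the 5 NSD libraries from mice that were not sleep deprived and were killed at the same time. Both groups carried the same transgenes, and each library pooled 2 mice. No library of input RNA was analysed here, so more RNA in the cells and more RNA on their ribosomes cannot be told apart, and neither can fewer cells of a type and less RNA per cell.

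Anks1b encodes AIDA-1, a scaffold protein of the postsynaptic density of excitatory synapses that binds PSD-95. Its long forms hold ankyrin repeats, a pair of SAM domains and a phosphotyrosine-binding domain, and many shorter forms arise from alternative starts and splicing. AIDA-1 is known for moving from the synapse to the nucleus after NMDA receptor activity and for a role in the trafficking of NMDA receptors that contain GluN2B.

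In GENCODE vM21 (build GRCm38, the same assembly as mm10) Anks1b lies on the + strand of chromosome 10 from 89873509 to 90973300 and has 33 transcripts. The models of Anks1b-204, Anks1b-202 and Anks1b-205 are short, and all 3 hold the same coding sequence of 798 bases (266 codons) in 8 coding exons between 90897343 and 90969911. No other of the 33 transcripts has exactly this coding sequence. By comparison, the longest coding sequence of the gene, that of Anks1b-233, has 3777 bases (1259 codons). The first and the last coding stretch are shown because they are common to the 3 models, with the start codon and the stop codon in capitals.
Start of the coding sequence, chr10:90897343-90897426, + strand: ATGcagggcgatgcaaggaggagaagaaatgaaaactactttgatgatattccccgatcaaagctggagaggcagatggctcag
End of the coding sequence, chr10:90969804-90969914, + strand: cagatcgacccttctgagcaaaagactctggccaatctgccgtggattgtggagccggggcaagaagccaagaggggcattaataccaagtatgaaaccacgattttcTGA

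What separates the models is the untranslated first exon and a difference in the 3′ end. Anks1b-204 (ENSMUST00000179337.8) has 10 exons and 2692 bases, and begins with an exon of 317 bases at 90829781 to 90830097. Anks1b-205 (ENSMUST00000179694.8) has 10 exons and 2663 bases, and its first exon of 115 bases starts 215 bases upstream of that of Anks1b-204. Anks1b-202 (ENSMUST00000099366.10) has 9 exons and 2549 bases, and starts 65317 bases downstream of Anks1b-204, at 90895098. Of their exonic bases, 2375 are shared by all 3 models. Anks1b-204 has 317 bases that neither of the other two holds, Anks1b-205 has 115 and Anks1b-202 has 1. Against all other GENCODE transcripts these numbers are 38, 0 and 1.

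**Figure D1:**
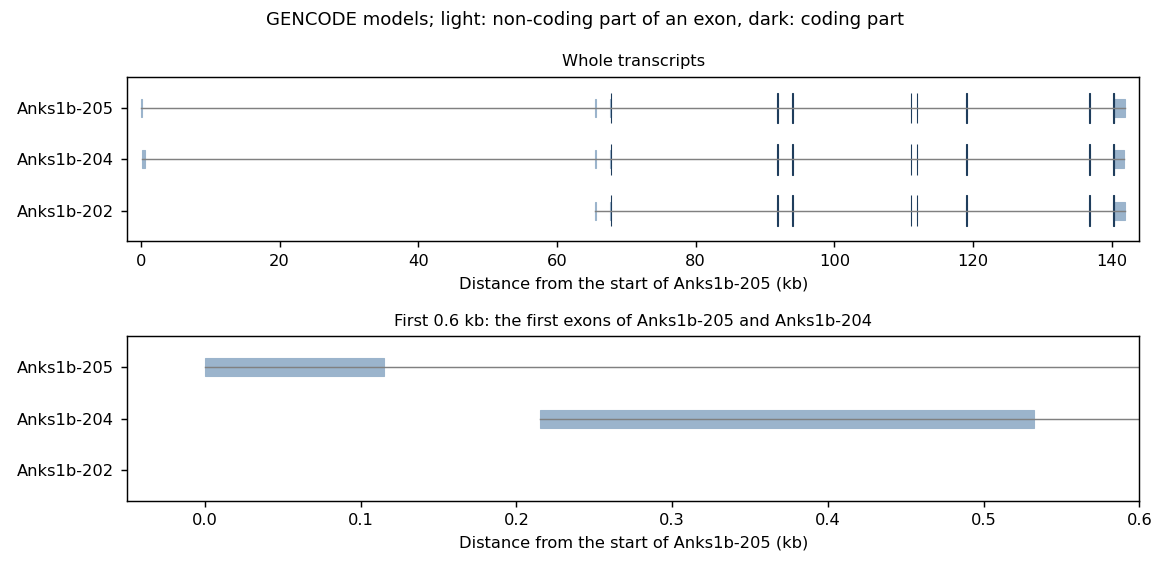
Exons of the 3 GENCODE models drawn to scale against the distance in kb from the start of Anks1b-205, with non-coding parts light and coding parts dark. The coding parts coincide, and the first exons of Anks1b-205 (115 bases) and Anks1b-204 (317 bases) lie side by side, far upstream of the start of Anks1b-202.

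The first exons of Anks1b-205 and Anks1b-204 are separated by 100 bases that lie in no GENCODE exon. This stretch is shown, with CG pairs in capitals, because it directly precedes the first exon of the Anks1b-204 model, which the other 2 models lack. It was taken from the RefSeq promoter sequences of GRCm38.p6.
Between the first exons, chr10:90829681-90829780, + strand: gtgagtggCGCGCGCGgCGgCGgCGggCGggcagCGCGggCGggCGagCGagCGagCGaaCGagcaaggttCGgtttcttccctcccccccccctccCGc
It holds 18 CG pairs, and 79.0% of its bases are G or C. Among 32851 windows of the same length and the same offset in the promoter table, the median was 2 CG pairs and 53.0% G or C. As many CG pairs were found in 1.15% of these windows, and as high a G and C content in 3.13%. This describes the sequence only.

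The authors counted a read on a transcript only where it could be assigned to a single one, and placed reads that fitted several in a tally of ambiguous reads. That tally took 37.2% to 52.0% of the reads of a library, while 22074914 to 29549339 reads per library were counted on transcripts. The exon models behind the 3 UCSC rows were not used here, so how many bases of each row could take a count is unknown, and the counts of the rows are not levels of the transcripts relative to each other. Reads of the shared exons cannot be split among them. Reads with no feature took 9.97% to 27.6% of a library. NSD 2 stood apart with 27.6% without a feature and 12.3% not aligned to a single place, against 5.88% to 6.23% of the latter in the other 10 libraries. None of 5 such measures of the libraries passed a two-sided exact permutation test between the groups after adjustment over the 5 (adjusted p of 0.325 or more). Counts on transcripts had the smallest unadjusted p in that permutation test, 0.0649. Their median was 24169900 in NSD and 26815400 in SD.

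The rows differed widely in count. Over all 11 libraries 21761 reads fell on the 3 rows, of which uc033frv.1 took 84.8%, uc007gtd.1 took 14.7% and uc033fsa.1 took 0.533%. This order held in each of the 11 libraries. With ambiguous reads not counted, a row with the GENCODE model of Anks1b-202, which has 1 base that the other 2 models lack, would be left with few reads, yet uc033frv.1 took most of them. The counts and the models are thus at odds, and whether the exon models used for counting or the name of the row differ was not tested. The names, which rest on matched statistics, are used below as labels of the rows, and no count is assigned to an exon of the GENCODE models.

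Anks1b-204 (uc007gtd.1) had more counts in the SD libraries. The counts were 222, 225, 227, 259 and 197 in NSD 2, 3, 4, 5 and B. They were 304, 304, 352, 332, 372 and 394 in SD 1, 2, 3, 4, 6 and D. Every SD library lay above every NSD library in raw counts, as held for 3.27% of all rows. Raw counts are not scaled for depth. After scaling by library size and upper-quartile factors, the CPM (counts scaled to a common library size) were 9.19, 9.72, 8.81, 10.8 and 8.20 in the NSD libraries, with a mean of 9.35 ± 1.0 (SD, n = 5). Values after ± are standard deviations over libraries, not the SD group. The SD libraries had 10.3, 12.9, 13.6, 13.3, 13.3 and 14.2 CPM, with a mean of 12.9 ± 1.34 (SD, n = 6). On this scale the groups overlapped by 1 library on each side, since SD 1 (10.3 CPM) lay below NSD 5 (10.8 CPM). The other 5 SD libraries lay above all NSD libraries.

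Anks1b-202 (uc033frv.1), the row with the most counts, was at like levels in both groups. Its counts were 1550, 1587, 1563, 1699 and 1647 in the NSD libraries and 1727, 1493, 1586, 1726, 1938 and 1941 in the SD libraries. In CPM these were 64.1, 68.6, 60.6, 71.2 and 68.6, with a mean of 66.6 ± 4.19 (SD, n = 5), against 58.7, 63.1, 61.2, 69.3, 69.5 and 69.8, with a mean of 65.3 ± 4.88 (SD, n = 6). The ranges overlapped over most of their length, and the lowest value on this scale was that of SD 1.

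Anks1b-205 (uc033fsa.1) had few counts. There were 4, 20, 14, 8 and 9 in the NSD libraries and 4, 11, 12, 8, 15 and 11 in the SD libraries. The means were 0.457 ± 0.265 CPM (SD, n = 5) and 0.386 ± 0.143 CPM (SD, n = 6), and the groups overlapped. A count of 4 has an exact 95% Poisson interval of 1.09 to 10.2, so single libraries say little about this row. Intervals on counts given here cover counting error only.

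The 3 rows together were at 76.4 ± 4.83 CPM in NSD (SD, n = 5) and 78.6 ± 6.0 CPM in SD (SD, n = 6). The summed counts were 1776, 1832, 1804, 1966 and 1853 against 2035, 1808, 1950, 2066, 2325 and 2346. The CPM ranges, 70.0 to 82.4 and 69.1 to 84.3, overlapped.

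**Figure D2:**
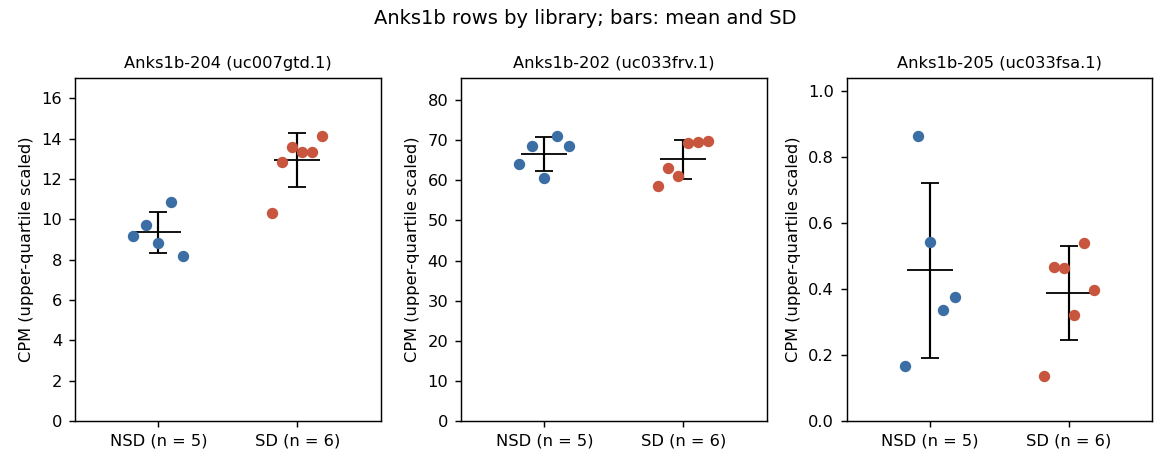
CPM of each row by library, with the NSD libraries in blue, the SD libraries in red, and the group mean and SD in black (each panel has its own axis from 0). Anks1b-204 is higher in SD with 1 SD library among the NSD values, while Anks1b-202 and Anks1b-205 overlap.

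Any further rows of Anks1b were not analysed here, so shares are of the 3 rows and not of the gene. The share of a row in the sum of the 3 does not depend on scaling between libraries. The share of Anks1b-204 was 12.5%, 12.3%, 12.6%, 13.2% and 10.6% in the NSD libraries, with a mean of 12.2% ± 0.955 (SD, n = 5). It was 14.9%, 16.8%, 18.1%, 16.1%, 16.0% and 16.8% in the SD libraries, with a mean of 16.4% ± 1.04 (SD, n = 6). All 6 SD libraries were above all 5 NSD libraries, a separation in this direction seen in 14.8% of the genes compared further on, and the means differed by 4.21 points (SE 0.603). The nearest libraries were NSD 5 at 13.2% and SD 1 at 14.9%, whose exact 95% binomial intervals of 11.7% to 14.7% and 13.4% to 16.6% overlapped. The share of Anks1b-202 was correspondingly 87.2% ± 1.01 in NSD (SD, n = 5) and 83.1% ± 1.17 in SD (SD, n = 6), also without overlap. As Anks1b-205 took little of the sum, this mirrors the share of Anks1b-204 and is no separate result. Anks1b-205 took 0.597% ± 0.340 and 0.487% ± 0.174 of the sum, with overlap.

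**Figure D3:**
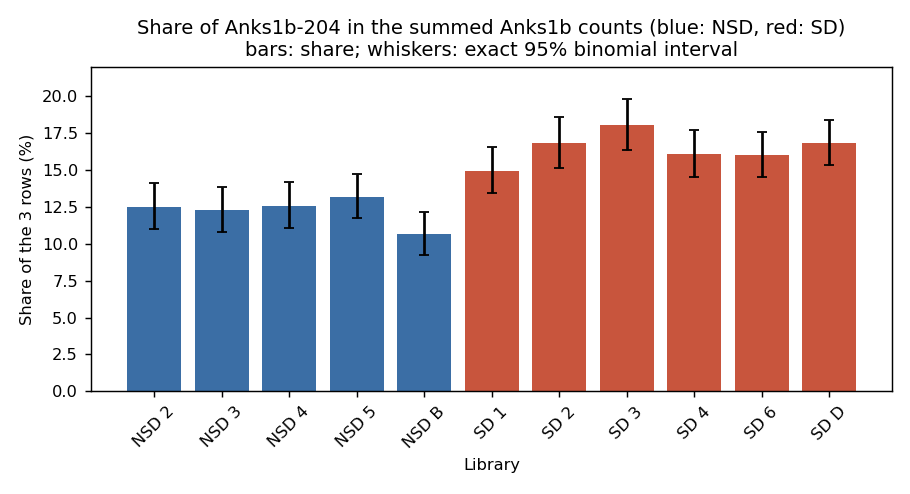
Share of Anks1b-204 in the counts of the 3 rows for each library, as bars with exact 95% binomial intervals (NSD blue, SD red). The NSD libraries sit between 10.6% and 13.2% and the SD libraries between 14.9% and 18.1%.

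Expressed as a ratio, there were 6.56 to 8.36 counts of Anks1b-202 for each count of Anks1b-204 in the NSD libraries and 4.51 to 5.68 in the SD libraries. The means were 7.17 ± 0.693 (SD, n = 5) and 5.07 ± 0.393 (SD, n = 6). On the log2 scale the ratio of Anks1b-204 to Anks1b-202 was −2.84 ± 0.133 in NSD and −2.34 ± 0.112 in SD, a difference of 0.50 (SE 0.0750). The observed SD of the share was 1.25 times the counting SD in NSD and 1.28 times in SD for Anks1b-204, 1.30 and 1.43 times for Anks1b-202, and 1.90 and 1.14 times for Anks1b-205. The counting SD treats reads as independent molecules.

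Such a change of share can be set beside other genes of the same list. For 54 genes the study lists several transcripts that could all be tested here, and shares are of these listed rows only, although some genes, such as Prrc2c and Gad2, have a further named row. The share of the row with the smallest p in its gene did not overlap between the groups in 11 of the 54 (20.4%), and in 8 of the 54 (14.8%), Anks1b among them, the SD libraries were the higher ones. By size of the difference in share Anks1b came 15th, at 4.21 points against a median of 1.13. In 8 of the 54 genes that row took under 50% of the counts of the listed rows of its gene, and in 2 of them it took less than the 14.5% (mean over libraries) that Anks1b-204 took. These 2 were Prrc2c, with Prrc2c-202 at 3.63%, and Bcl11a, with Bcl11a-201 at 6.11%. The genes were listed by the study on these same libraries, so the comparison is a description.

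Fitted over all 29599 rows with edgeR, Anks1b-204 had a log2 fold change of 0.47 (SE 0.111), or 1.38-fold, in SD against NSD. Anks1b-202 had −0.03 (SE 0.0824), Anks1b-205 had −0.24 (SE 0.398) and the sum had 0.04 (SE 0.0833). Bounds of 2 SE ran from 0.25 to 0.69 for Anks1b-204, from −0.19 to 0.13 for Anks1b-202, from −1.04 to 0.55 for Anks1b-205 and from −0.13 to 0.21 for the sum. At an FDR of 0.05, 0 of the 3 rows were called by the quasi-likelihood test, beside 0.0507% of all rows (0.0439% higher in SD). At an unadjusted p under 0.05 the count was 1 of 3 (Anks1b-204), beside 4.45% of all rows. With TMM factors Anks1b-204 was called, beside 0.209% of all rows, and it was also called by DESeq2 (beside 0.885% of the 15252 rows with an adjusted p) and after the filterByExpr filter (beside 0.993% of 19228 rows). Nothing is read from these calls, since the same contrast chose the rows. The median log2 fold change of all rows was 0.01. Among 1585 rows within 0.5 log2 CPM of Anks1b-204, 1.01% had a larger size of fold change, while 76.3% of 1230 rows had a larger one than Anks1b-202 and 48.6% of 3913 a larger one than Anks1b-205.

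**Figure D4:**
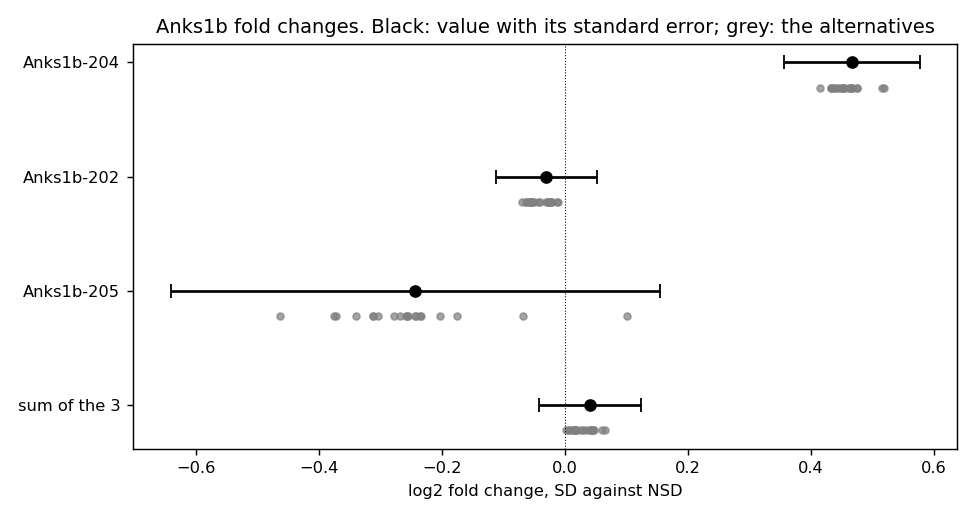
Log2 fold change in SD against NSD for each row and for the sum, with the standard error in black and the alternative fits in grey. Anks1b-204 lies between 0.42 and 0.52 in all alternatives, Anks1b-202 and the sum lie near 0, and Anks1b-205 spans 0.

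How far a library lay from its group depended on the scaling. The upper-quartile factor followed the percentage of reads with no feature (Pearson's r 0.839, permutation p 0.00041, and Spearman's rho 0.90, permutation p 0.00040, n = 11, group means removed). Adjusted over a family of 3 relations that was added after the values were seen, the p values were 0.00123 and 0.00120. SD 1 had the highest factor, 1.19, with 21.1% of reads without a feature. CPM of Anks1b-202, which are divided by this factor, ran the other way (r −0.657, p 0.0300, adjusted 0.0450, and rho −0.664, p 0.0324, adjusted 0.0487, permutation tests). For Anks1b-204 the relation was r −0.488 (p 0.160, adjusted 0.160) and rho −0.518 (p 0.140, adjusted 0.140), again by permutation. Without NSD 2 and SD 1, the libraries farthest from the median, r was 0.891, −0.642 and −0.268 for the 3 relations.

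Divided by library totals alone, Anks1b-204 was at 10.1, 9.09, 9.82, 9.97 and 8.15 CPM in the NSD libraries and at 12.3, 11.8, 14.6, 11.9, 12.6 and 13.7 in the SD libraries. The groups then did not overlap, as was so upwards for 1.38% of all rows on that scale and for 0.459% of them in upper-quartile CPM (downwards 0.361%). The log2 fold change of Anks1b-204 on that scale was 0.44 (SE 0.0830), and that of Anks1b-202 was −0.05 (SE 0.0468). Anks1b-202 was then at 70.2, 64.1, 67.6, 65.4 and 68.1 CPM in the NSD libraries and at 70.0, 58.0, 65.7, 61.8, 65.6 and 67.5 CPM in the SD libraries. By library totals NSD 2 and SD 1, with the most reads without a feature in their groups, had the highest values of Anks1b-202 in their groups. The relation of Anks1b-202 with such reads was not tested on that scale.

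**Figure D5:**
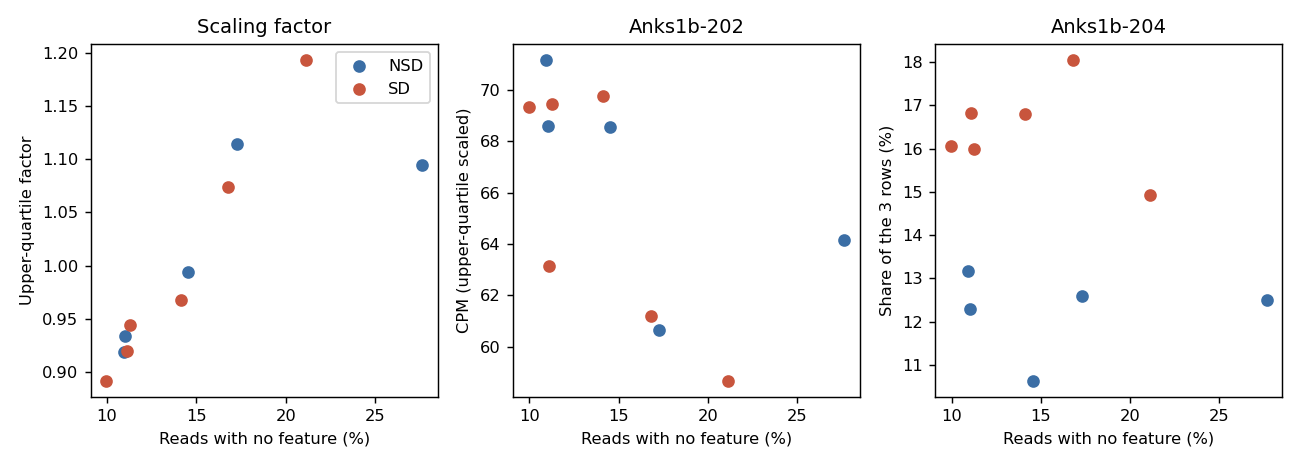
Percentage of reads with no feature in each library against the upper-quartile factor, the CPM of Anks1b-202 and the share of Anks1b-204 (NSD blue, SD red). The factor is high where many reads had no feature, CPM of Anks1b-202 on the upper-quartile scale is low there (by library totals it is not), and the share of Anks1b-204 separates the groups at both ends of the axis.

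The share of Anks1b-204 was also set against 4 properties of the libraries, with group means removed (n = 11). It had r 0.0205 with the percentage of ambiguous reads, −0.0725 with that of reads with no feature and −0.0918 with the counts on transcripts. For log2 CPM of Gad2-201, an enzyme that makes GABA in inhibitory neurons, r was −0.296. Their permutation p values were 0.948, 0.835, 0.811 and 0.397, and rho was −0.0545, −0.0909, −0.127 and −0.218 (p 0.884, 0.804, 0.735 and 0.542). Without the 2 farthest libraries r became −0.372, 0.318, 0.349 and −0.153. CPM of Anks1b-204 and Anks1b-202 moved together within the groups, with r 0.636 (permutation p 0.0382, adjusted over the 5 relations 0.191) and rho 0.70 (p 0.0230, adjusted 0.115). That relation did not pass the adjustment, and r was 0.319 without NSD 4 and SD 1. Both rows share the scaling factor of their library.

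The biological coefficient of variation was 13.5% for Anks1b-204, where rows of like abundance had a median of 14.5%, and 10.4% for Anks1b-202, against a median of 12.4%. Of the rows of like abundance, 27.8% and 4.55% had a lower value. Anks1b-205 had 35.6%, against a median of 30.5%. The CPM of Anks1b-204 had a coefficient of variation of 10.7% in NSD and 10.4% in SD, where counting alone would give 6.65% and 5.40%.

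Rows with a pattern like that of each member were sought among 1843 named rows with at least 10 counts in every library, by Pearson's r of log2 CPM over the 11 libraries. Nearest to Anks1b-204 were Prkab2-201, a subunit of AMP-activated protein kinase (r 0.975), the MAP kinase phosphatase Dusp1 (0.969), Apip, an enzyme of methionine salvage (0.951), Cdkn1b-202, a cyclin-dependent kinase inhibitor (0.948), and Pik3r1-202, a regulatory subunit of PI3 kinase (0.945). Prkab2-201 was at 14.9 ± 1.71 CPM in NSD and 23.3 ± 2.93 CPM in SD (SD, n = 5 and 6), and Dusp1 at 19.7 ± 2.57 and 28.5 ± 3.42. With group means removed the 5 had r of 0.907, 0.892, 0.849, 0.808 and 0.789, below those of the 5 rows nearest to Anks1b-202 given next.

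Anks1b-202 was nearest to other rows. These were Dock3, an exchange factor for Rac (0.965), the prohormone convertase Pcsk2 (0.961), the contactin Cntn3 (0.950), the protocadherin Pcdh10 (0.942) and Rab11fip5, a Rab11 effector (0.941). With group means removed their r was 0.975, 0.970, 0.969, 0.975 and 0.982. Between 9 and 49 of the rows without a name were nearer still, whereas none was nearer to Anks1b-204 than its 5. Between Anks1b-204 and Anks1b-202 themselves r was 0.187. Names were at hand mainly for rows with a low p in SD against NSD, and all rows share the library's scaling factor, so these are descriptions.

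Other postsynaptic genes were read from a list of 52, of which 14 had a named row. Besides Anks1b these were 13 genes with 18 rows. At an FDR of 0.05, 1 row rose and 1 fell, beside 0.0507% of all rows called. Homer1-204, a row of the scaffold gene Homer1, rose from a mean of 29.9 to 51.3 CPM, a log2 fold change of 0.78 (SE 0.119, adjusted p 0.0139, edgeR quasi-likelihood test). Tiam1-207, a row of an exchange factor for Rac at spines, fell from a mean of 9.21 to 5.28 CPM, a log2 fold change of −0.80 (SE 0.132, adjusted p 0.0232, the same edgeR test). Both calls were lost when some single libraries were left out. That of Tiam1-207 was also lost with the kind of title ending as a covariate (log2 fold change −0.79, adjusted p 0.0519, edgeR). In fits of replicates 2, 3 and 4 alone, neither was called with a replicate block, and only Homer1-204 without it. Homer1-204 was not called without NSD 4, NSD B or SD D (log2 fold change 0.75, 0.76 and 0.83), and was called in the other 8 fits that left out 1 library. Tiam1-207 was called in 5 of these 11 fits, and not without NSD 2, 4, 5 or B or SD 6 or D, with log2 fold changes of −0.80, −0.86, −0.80, −0.76, −0.81 and −0.81.

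At an unadjusted p under 0.05, 2 rows were higher in SD and 6 lower, beside 4.45% of all rows in either direction. Besides the 2 above, the higher one was Arc, the immediate early gene of AMPA receptor endocytosis (log2 fold change 0.72). Among the lower were Lzts1-201 (−0.24) and Lzts1-204 (−0.25), rows of a postsynaptic density protein, the Arf exchange factor Iqsec3 (−0.19) and a row of the kinase gene Camk2a (−0.41). The Camk2a row was at a mean of only 2.51 CPM in NSD and 1.89 in SD, and no other row of that gene had a name. The median over the 18 rows was −0.19, beside 0.01 over all rows. Since a name was at hand for only 26.9% of the genes, mostly where p was low, the counts are not a sample of the list.

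Homer1 and Tiam1 also had further named rows, and the difference between rows of 1 gene was not tested. Homer1-203 had a log2 fold change of 0.11 (SE 0.103) beside 0.78 (SE 0.119) for Homer1-204. Tiam1-202 had −0.07 (SE 0.131), Tiam1-204 had −0.22 (SE 0.207) and Tiam1-211 had −0.23 (SE 0.319), beside −0.80 (SE 0.132) for Tiam1-207. The share of Homer1-204 in the listed Homer1 rows differed by 10.8 points (SD minus NSD), and that of Tiam1-207 by −11.8 points.

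Markers of cell types could be read for 10 of 41 genes. As names were at hand mainly for rows with a low p in SD against NSD, these rows are not a sample of the lists. Excitatory neurons had Neurod2 (302 to 386 CPM in NSD, 283 to 452 in SD) and the Camk2a row given above. The latter was at 2.32 to 2.76 CPM in NSD and 1.48 to 2.31 CPM in SD. Every SD library lay below every NSD library, as in 0.361% of all rows, but the groups nearly touched. The lowest NSD library was at 2.317 CPM and the highest SD library at 2.315 CPM. No astrocyte or microglia gene of the lists had a named row, so those cells were not checked. Inhibitory genes (4 of 13, in 6 rows) summed to 23.2 to 104.3 CPM in NSD and 15.6 to 48.5 in SD. Most of this sum was Gad2-201, at 20.4 to 92.2 CPM in NSD (median 43.1) and 13.5 to 42.7 in SD (median 17.0). Genes of septal or thalamic cells (Zic1, Zic2 and Zic5, 3 of 7) summed to 5.17 to 29.5 and 2.83 to 11.4 CPM. Mbp of oligodendrocytes (1 of 5) was at 167 to 195 and 178 to 230 CPM. The part of these cells in the values of Anks1b was not tested beyond the relation of the share with Gad2-201 within the groups.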

How the data were processed

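TRAP-Seq libraries (5 NSD, 6 SD) were grouped by their labels. Columns headed SID belong to samples titled SD. The deposited values are raw counts that the authors did not normalize, made with Trimmomatic 0.36, STAR 2.7.5 (build mm10) and HTSeq-count (intersection-nonempty, ambiguous reads not counted). The 5 tallies of uncounted reads were left out of the fits reported here. A separate fit, used only to name rows, kept them, with the filterByExpr filter, TMM factors and the likelihood ratio test. Rows were named from supplementary lists of the study by matching each listed statistic to 1 row (relative tolerance 1e-05), which gave names to 2061 rows, and no listed value is reported. No label says how far the libraries were handled separately, so p-values measure the spread between libraries.

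Of all rows, 29599 had a count of 1 or more in 5 or more libraries and were fitted with edgeR 4.0.16 (R 4.3.3), using upper-quartile factors, its quasi-likelihood test (two-sided) and p-values adjusted by Benjamini-Hochberg (FDR 0.05). CPM were scaled likewise, with a prior count of 2 on the log2 scale. Relations were tested with 100000 permutations within groups, in scipy 1.17.1. DESeq2 1.42.0 and other settings were alternatives. The edgeR quasi-likelihood fit was tested on simulated counts. The members and gene lists were chosen with earlier results of these data known. Named genes were the 3 rows, the 5 named rows most like each of the 2 abundant ones, and rows of the postsynaptic list at an unadjusted p under 0.05, of which 1 is not reported here. Homer1-203, the other Tiam1 rows, Prrc2c and Bcl11a were named after their values were seen.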

Additional observations from a re-analysis of the deposited data

Results flagged for a closer look

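In 3 of 24 groups of libraries the highest or lowest value stood apart from the rest, where chance gives about 1 in 20. CPM of Anks1b-204 in SD 1 was 10.3, and the nearest SD library was at 12.9. In NSD 2, 37.2% of reads were ambiguous, and the nearest NSD library had 47.6%. Also in NSD 2, 12.3% of reads were not aligned to a single place, against 6.09% in the nearest.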

How the results depend on the processing

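The log2 fold change of Anks1b-204 was 0.42 to 0.52 in 21 alternatives, that of Anks1b-202 −0.07 to −0.01, and that of the sum 0.00 to 0.07. Anks1b-205 ranged from −0.46 to 0.10 in 20 alternatives and was above 0 only without NSD 3. The share of Anks1b-204 differed by 3.74 to 4.52 points and the log2 ratio by 0.43 to 0.53 in 14 alternatives each. Anks1b-204 was called at FDR 0.05 with TMM, DESeq2, filterByExpr, at least 10 counts in every library and library totals, and without SD 1, and in none of the other settings.

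Over all rows 15 were called (13 higher in SD, 2 lower). The count was 62 with TMM (51 higher, 11 lower), 135 with DESeq2 (93 higher, 42 lower), 65 with the likelihood ratio test (37 and 28), 191 with filterByExpr (132 and 59), 311 where every library had 10 counts or more (200 and 111), 33 with at least 1 count in 1 library (11 and 22), 8 with the kind of title ending as a covariate (7 and 1), and 271 with library totals (204 higher, 67 lower, added after seeing the data). Leaving out 1 library gave 0 to 78, with 78 without SD 1, 8 without SD 3, 6 without SD 6, 2 without NSD 4, 1 without NSD B, and 0 by edgeR without SD D, where 1178 had an unadjusted p under 0.05. More calls were lower than higher also without SD 2 (7 higher, 12 lower). The cause was not tested.

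Replicate numbers 2, 3 and 4 occur in both groups, but same-numbered libraries deviated in opposite directions (r −0.545, −0.592 and −0.664), and no label ties them, so they were not treated as pairs. Whether they shared a day or handling is not known. With a replicate block over these 6 libraries edgeR called 0 rows (467 at an unadjusted p under 0.05), and without the block 2. Homer1-204 was called without the block and not with it (log2 fold change 0.97 in both), and Tiam1-207 in neither (−0.82 and −0.84). Under the block the fold changes were 0.46, −0.06 and −0.23 for Anks1b-204, Anks1b-202 and Anks1b-205 and 0.02 for the sum.

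Anks1b-205 had 4 to 20 counts per library, so its values are imprecise. Why its counts are low was not tested.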
